A study of Mus musculus with 50 samples.

Results

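The insulin-like growth factor (IGF) binding protein genes Igfbp2, Igfbp3, Igfbp4, Igfbp5, Igfbp6 and Igfbp7 were followed across 50 mouse mammary gland tumors. The 6 genes were chosen by their names in the deposited table, which lists 37701 genes. All 6 were among the 16733 genes that passed the filter of a mean of at least 0.5 RPKM (reads scaled to gene length and library size) over the 50 tumors. Igfbp1, the remaining classical binding protein gene, was close to absent, with at most 0.072 RPKM in any tumor, worth at most 4.88 reads.

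The tumors grew in female p53R270H/+WAPCre mice, 8 weeks old at the start, in which Cre driven by the promoter of a milk protein gene switches on a mutant p53 allele in mammary epithelium. All groups carried this genotype. The 5 groups of mice differed in the agent given under the skin on alternate days (vehicle, insulin, glargine, X10 or IGF1), dosing went on up to tumor development, and poly-A selected RNA was taken from tumors of 1 cm3 at 24 hours after the last injection, with 10 tumors in each group. The tumor titles call the vehicle group untreated, whereas the treatment notes say that it was injected with vehicle. Glargine is a long-acting insulin analogue and X10 is an insulin analogue with a raised affinity for the IGF1 receptor, so the comparisons ask whether agents that act on the insulin or the IGF1 receptor leave a mark on the genes that regulate IGF in the tumor. According to the study's methods, the sequenced tumors were picked among those with a mesenchymal appearance and with a latency near the median of their group, and doses are not given in the sources used here.

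IGF binding proteins are secreted proteins that bind IGF1 and IGF2 and control how much of either ligand reaches the IGF1 receptor. Igfbp2, Igfbp3, Igfbp4, Igfbp5 and Igfbp6 belong to the high-affinity family. Igfbp3, and to a lesser degree Igfbp5, carries circulating IGF in a complex with the acid-labile subunit, Igfbp4 mainly inhibits IGF action until it is cut by the protease PAPP-A, and Igfbp6 prefers IGF2. Igfbp7 is a relative with low affinity for IGF that is found in vessel walls and extracellular matrix. In the mammary gland Igfbp5 is known for its rise at involution, when milk-producing epithelium dies.

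On GRCm38 and the GENCODE M21 annotation, Igfbp2 (ENSMUSG00000039323) lies at chr1:72824503-72852474 on the plus strand and Igfbp5 (ENSMUSG00000026185) at chr1:72857932-72874884 on the minus strand, with 5457 bases between them. Igfbp3 (ENSMUSG00000020427) lies at chr11:7206086-7213923 on the minus strand, 3539 bases from Igfbp1. Igfbp4 (ENSMUSG00000017493) lies at chr11:99041244-99054392 on the plus strand, Igfbp6 (ENSMUSG00000023046) at chr15:102144362-102149511 on the plus strand and Igfbp7 (ENSMUSG00000036256) at chr5:77349240-77408041 on the minus strand. There is 1 value per gene and tumor, with no split by transcript.

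The 250 bases upstream of the annotated start (RefSeq, GRCm38.p6) are shown for 3 genes on which the results below turn. Igfbp3 (chr11:7213924-7214173, minus strand) followed a list of hypoxia genes, Igfbp7 (chr5:77408046-77408295, minus strand) followed epithelial genes, and Igfbp5 (chr1:72874866-72875115, minus strand) had the smallest p-value between treatments. Capitals mark matches, on either strand, to the core of the hypoxia response element (ACGTG or GCGTG) and to a TATA box (TATAAA or TATATA).
Igfbp3: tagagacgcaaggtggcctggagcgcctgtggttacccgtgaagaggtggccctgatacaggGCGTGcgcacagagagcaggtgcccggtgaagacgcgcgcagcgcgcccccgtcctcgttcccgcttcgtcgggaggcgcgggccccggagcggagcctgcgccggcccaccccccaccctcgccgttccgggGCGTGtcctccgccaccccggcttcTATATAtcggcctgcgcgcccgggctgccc
Igfbp7: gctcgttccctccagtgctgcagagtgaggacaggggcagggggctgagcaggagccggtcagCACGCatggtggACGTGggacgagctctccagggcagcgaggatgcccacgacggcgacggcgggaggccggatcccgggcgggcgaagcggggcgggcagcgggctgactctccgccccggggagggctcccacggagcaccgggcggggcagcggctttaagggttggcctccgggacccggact
Igfbp5: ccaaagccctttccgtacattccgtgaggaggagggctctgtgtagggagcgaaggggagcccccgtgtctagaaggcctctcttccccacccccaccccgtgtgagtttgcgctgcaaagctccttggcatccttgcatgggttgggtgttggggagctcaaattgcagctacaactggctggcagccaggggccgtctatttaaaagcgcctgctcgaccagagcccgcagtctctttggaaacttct
The Igfbp3 window holds GCGTG at -188 and at -55, counted from the start, and TATATA at -30. The Igfbp7 window holds ACGTG at -175 and GCGTG at -187 on the other strand, and the Igfbp5 window holds no match. Among 32851 windows of the same length, 38.6% held a hypoxia core and 15.6% a TATA match, so these matches are common. The first Igfbp2 window held 4 hypoxia cores, of which 2 are the strands of a single palindrome. The matches describe letters only.

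Library sizes recovered from the steps between low values lay between 26.43 and 51.89 M reads, and the median tumor had 40.87 M reads, with group medians from 35.35 M reads (X10) to 43.86 M reads (vehicle). At this depth even the lowest member value rested on 35.0 reads (Igfbp2), and the lowest Igfbp4 value on 11139 reads, so counting error was small beside the spread between tumors. The lists of luminal, basal, fibroblast, endothelial, mural, leukocyte, adipocyte and skeletal muscle markers had summed levels above 0 in every tumor. The summed level of 7 luminal markers, which include the epithelial gene Epcam, ranged from 11.93 to 4777 RPKM, and that of 7 fibroblast or mesenchymal markers from 2618 to 31470 RPKM. In bulk tumors, fewer cells of a type and less RNA per cell cannot be told apart. The numbers in the tumor titles run in treatment order, so a batch that followed them and the treatment cannot be told apart.

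The plots of values by group show an abundant and less variable set, Igfbp4, Igfbp7 and Igfbp3, and a low and highly variable set, Igfbp5, Igfbp6 and Igfbp2. Igfbp4 had a median of 1716 RPKM over the 50 tumors (range 390.4 to 4716). Igfbp7 had a median of 346.8 RPKM (172.4 to 1497). Igfbp3 had a median of 172.1 RPKM (43.58 to 338.3). Igfbp4 thus made up a median of 73.4% of the summed RPKM of the 6 genes, and was the highest of the 6 in 47 tumors. Igfbp7 was the highest in the other 3, which were glargine_69, vehicle_174 and vehicle_182. The tumors are named by group and mouse number.

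Igfbp5 had a median of 19.62 RPKM (1.39 to 940.4), Igfbp6 of 15.09 RPKM (4.056 to 589.5) and Igfbp2 of 14.08 RPKM (0.838 to 821). These 3 genes spanned a range of 145.3 times (Igfbp6) to 979.7 times (Igfbp2) between the lowest and the highest tumor, against 7.76 times for Igfbp3. The SD between tumors on the log2(RPKM + 0.5) scale was 1.75 for Igfbp2, 1.74 for Igfbp5 and 1.29 for Igfbp6. It was 0.88 for Igfbp4, 0.72 for Igfbp3 and 0.56 for Igfbp7, and the median over all tested genes was 0.42. Igfbp2 and Igfbp5 were thus more variable than 98.8% and 98.7% of tested genes.

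**Figure D1:**
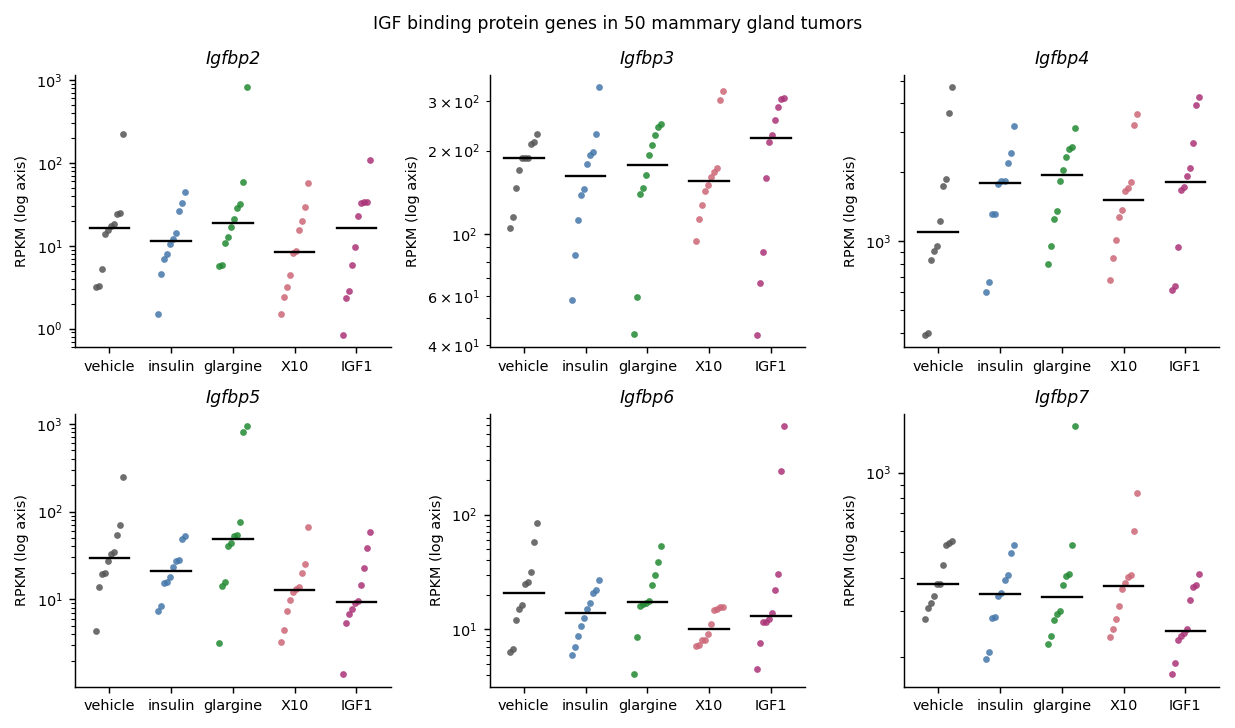
RPKM (log axes, a different range in each panel) of the 6 genes in each of 50 tumors, with 1 point per tumor, 10 tumors per treatment and a horizontal line at each group's median. Groups overlap in all 6 panels, and single tumors stand far above the rest in Igfbp2, Igfbp5, Igfbp6 and Igfbp7.

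The order of levels held within tumors for the abundant genes. On the log2(RPKM + 0.5) scale Igfbp4 was 2.13 ± 1.23 (SD, n = 50) above Igfbp7, Igfbp7 was 1.13 ± 0.91 above Igfbp3, and Igfbp3 was 2.84 ± 2.04 above Igfbp5. The gaps had this sign in 47, 46 and 46 of 50 tumors, each with p = 1e-05, the smallest that 100000 resamples can give, and adjusted p = 1.667e-05 (two-sided sign-flip permutation test, 5 neighbouring pairs). Igfbp5 and Igfbp6 differed by 0.37 ± 2.18 (adjusted p = 0.307) and Igfbp6 and Igfbp2 by 0.31 ± 2.29 (adjusted p = 0.353) in the same test. No order was thus detected between these neighbours, and Igfbp5 was not tested against Igfbp2.

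The first place of Igfbp4 depended on the gene length used. The length behind the deposited Igfbp4 values, recovered from their steps, was 763.5 bases, the median of its 6 annotated transcripts, whereas its longest protein-coding transcript has 3831 bases. With the longest coding transcript as the length of each gene, an alternative chosen after seeing the data, the median of Igfbp4 was 341.9 RPKM and that of Igfbp7 337.1 RPKM. Igfbp7 was then 0.16 ± 1.23 above Igfbp4 on the log2 scale, with the higher value in 23 of 50 tumors (adjusted p = 0.461, same permutation test). The other 5 genes moved far less, from 172.1 to 146.8 RPKM for Igfbp3 and not at all for Igfbp6, which has a single transcript. The steps alone did not settle the length of Igfbp5, which was taken as the median of its annotated transcripts.

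**Figure D2:**
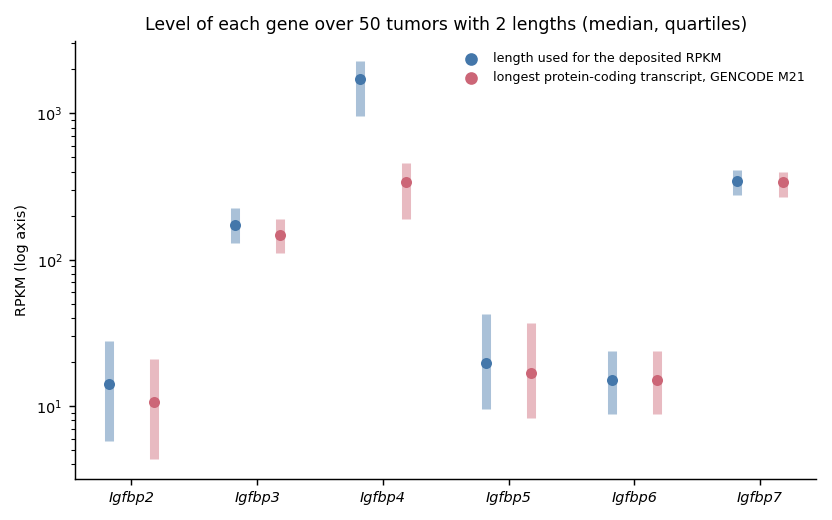
Median (point) and quartiles (bar) of RPKM over 50 tumors for each gene (log axis), with the length behind the deposited values (blue) and with the longest protein-coding transcript (red). Igfbp4 falls from 1716 to 341.9 RPKM, close to Igfbp7, while the other genes shift little.

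No binding protein gene passed an adjusted p of 0.05 between treatments. The limma F test over the 5 groups called 0 of 6 members, against 0.102% of all 16733 genes, and 1 member, Igfbp5, had an unadjusted p under 0.05, as did 13.1% of all genes. Against vehicle, 0 of 6 members were called for insulin and for glargine (0% of all genes in either comparison), for X10 (0.0657% of all genes) and for IGF1 (0.00598%). Against insulin, 0 of 6 were called for glargine (0% of all genes), X10 (0.102%) and IGF1 (0.00598%). The pooled comparison of X10 and IGF1, the agents with high affinity for the IGF1 receptor, with vehicle, insulin and glargine called 0 of 6 members and 0.155% of all genes. An unadjusted p under 0.05 was reached by Igfbp5 and Igfbp7 for IGF1 against vehicle and by Igfbp5 for glargine against insulin and in the pooled comparison, and by no member in the 5 remaining contrasts. Over all genes the share with an unadjusted p under 0.05 was 8.84% for IGF1 against vehicle, 3.96% for glargine against insulin and 10.5% in the pooled comparison. Nearly all genes were below the call threshold in these data, so the members did not stand apart from the background. Several comparisons share the vehicle or the insulin tumors.

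Igfbp5 came nearest to a call. It ranged from 4.304 to 250.2 RPKM with a median of 29.83 in vehicle tumors, and from 7.384 to 52.72 with a median of 20.76 in insulin tumors. Glargine tumors ranged from 3.136 to 940.4 RPKM with a median of 48.05. X10 tumors ranged from 3.216 to 65.91 RPKM with a median of 12.65, and IGF1 tumors from 1.39 to 58.97 RPKM with a median of 9.311. The groups overlapped, the lowest value of all, 1.39 RPKM, was in an IGF1 tumor, and 17 of 20 X10 and IGF1 tumors were below the median of the other 30 tumors (27.95 RPKM). The pooled log2 fold change was -1.42 (SE 0.44, 95% interval -2.32 to -0.53), with p = 0.00234 and adjusted p = 0.157 in limma. Treatment accounted for 23.1% of the variance of Igfbp5 on the log2 scale, against a median of 9.29% over all tested genes (limma F test, adjusted p = 0.266).

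Relative to vehicle, the log2 fold change of Igfbp5 was -1.27 (SE 0.69, adjusted p = 0.494) for X10 and -1.40 (SE 0.69, adjusted p = 0.558) for IGF1 in limma. It was -0.56 (SE 0.69) for insulin and 0.83 (SE 0.69) for glargine, with adjusted p = 0.799 and 0.857. The glargine value rested on 2 tumors, glargine_63 with 940.4 RPKM and glargine_69 with 810.5 RPKM. Without both, an alternative chosen after seeing the data, it was -0.16, and the difference between glargine and insulin fell from 1.39 to 0.40. The pooled log2 fold change was then -1.09 (adjusted p = 0.250). The summed milk protein genes, which are most active in secretory epithelium, were also highest in glargine tumors, with a median of 129.4 RPKM against 7.115 in vehicle, 8.467 in insulin, 33.36 in X10 and 11.44 in IGF1 tumors. Adipocyte markers were highest there too, with a median sum of 185.1 RPKM against 51.99 in vehicle, 43.28 in insulin, 72.02 in X10 and 53.93 in IGF1 tumors. Fibroblast markers were lowest in X10 and IGF1 tumors, with median sums of 9657 and 8435 RPKM against 11380 to 15860 in the other groups. With the scores of luminal epithelium, adipocyte and skeletal muscle markers as covariates, the pooled Igfbp5 difference was -1.36 (adjusted p = 0.209 in limma). The part of milk protein and fibroblast genes was not tested.

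Igfbp7 had its lowest group median under IGF1. It ranged from 172.4 to 412 RPKM with a median of 251.1 in IGF1 tumors, and from 278.6 to 548.5 RPKM with a median of 377.5 in vehicle tumors. The ranges overlapped, with 9 of 10 IGF1 tumors below the log-scale mean of vehicle. The log2 fold change was -0.54 (SE 0.24, 95% interval -1.02 to -0.07), with p = 0.0266 and adjusted p = 0.493 in limma. Luminal epithelium markers were also low in IGF1 tumors, with a median sum of 135.4 RPKM against 344.4 in vehicle tumors. With the scores of luminal epithelium, adipocyte and skeletal muscle markers as covariates, the Igfbp7 difference was -0.24 (adjusted p = 0.954). The scores entered the fit together, and the part of luminal markers in the difference was not tested. The log2 fold changes for insulin, glargine and X10 lay between -0.25 and -0.05 (SE 0.24).

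Igfbp6 was low and narrow under X10. It ranged from 7.185 to 15.58 RPKM in X10 tumors, with a median of 10.17, and from 6.349 to 85.1 RPKM in vehicle tumors, with a median of 20.67. The X10 tumors lay inside the vehicle range, and 10 of 10 were below the log-scale mean of vehicle. The log2 fold change was -0.92 (SE 0.55, adjusted p = 0.537 in limma). In IGF1 tumors the median was 13.14 RPKM, but the range reached 589.5 RPKM and the log2 fold change was 0.26 (SE 0.55, adjusted p = 0.959). Insulin tumors had a median of 13.84 RPKM and glargine tumors of 17.26 RPKM.

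Igfbp2, Igfbp3 and Igfbp4 showed no comparison with an unadjusted p under 0.05. Igfbp2 had group medians of 16.29 RPKM in vehicle, 11.25 in insulin, 18.87 in glargine, 8.396 in X10 and 16.26 in IGF1 tumors. Its log2 fold changes against vehicle lay between -0.74 (X10) and 0.69 (glargine) with an SE of 0.76. Single tumors moved them: the glargine value was 0.13 without glargine_69 and 1.11 without vehicle_161, and the X10 value was -0.32 without vehicle_161. Igfbp3, the main serum carrier, had group medians of 188.2, 162.3, 177.9, 155.7 and 221.8 RPKM in the same order. Its log2 fold changes against vehicle lay between -0.21 and -0.06 with an SE of 0.32, and treatment accounted for 1.28% of its variance.

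Igfbp4 had its lowest group median, 1095 RPKM, in vehicle tumors, which ranged from 390.4 to 4716. The medians were 1805 RPKM in insulin, 1942 in glargine, 1510 in X10 and 1823 in IGF1 tumors. The 4 log2 fold changes against vehicle, which share the vehicle tumors, lay between 0.30 and 0.49 with an SE of 0.39, with adjusted p from 0.799 (insulin) to 0.856 (glargine). With a tumor left out they ran from 0.11 (X10, without vehicle_182) to 0.70 (glargine, without vehicle_187).

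**Figure D3:**
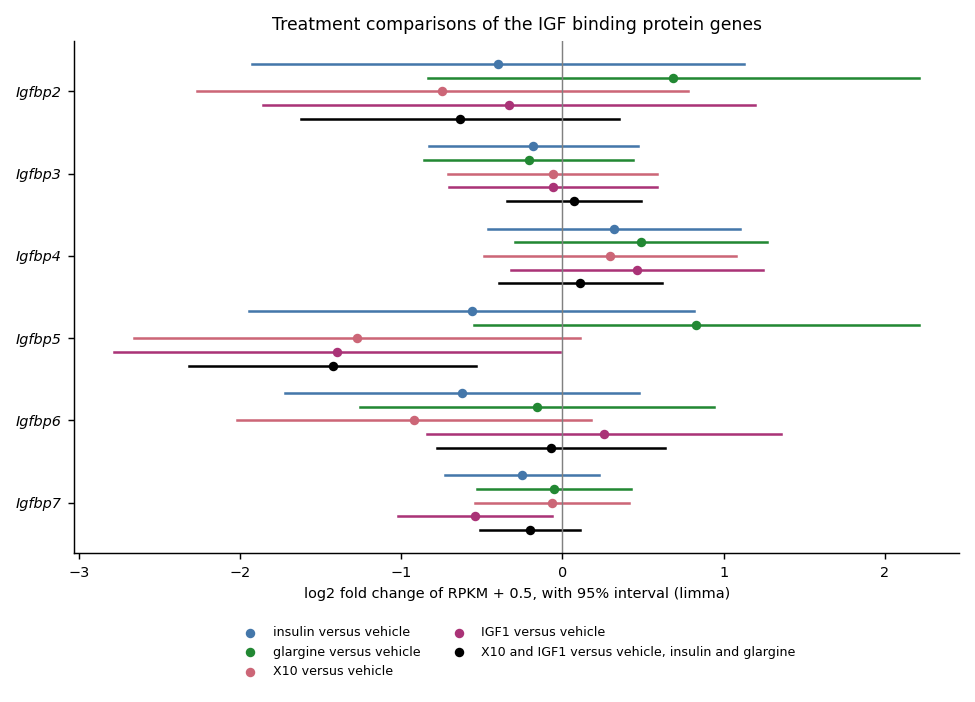
log2 fold change of RPKM + 0.5 (point) with its 95% interval (line, limma) for each gene, for the 4 agents against vehicle (colors) and for X10 and IGF1 against the other groups (black). The interval of Igfbp5 in the pooled comparison runs from -2.32 to -0.53, the intervals of Igfbp5 and Igfbp7 for IGF1 against vehicle also lie below 0, and the others include 0.

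The rest of the IGF system did not pass the threshold either. Of 5 ligand and receptor genes, 2 detected carriers or receptors of binding proteins, 10 genes for proteases of binding proteins or their inhibitors and 7 detected relatives with an IGFBP-type domain, 0 were called by limma in any of the 9 tests. In the pooled comparison 5 of these 24 genes had an unadjusted p under 0.05, against 10.5% of all genes. The 2 smallest p-values were those of the matricellular gene Cyr61, with a log2 fold change of -0.53 (SE 0.18, adjusted p = 0.200), and the ligand Igf1, with -0.62 (SE 0.23, adjusted p = 0.288). Igf1 ranged from 6.815 to 65.94 RPKM in X10 and IGF1 tumors, with a median of 34.31, and from 6.581 to 163.8 RPKM in the other 30 tumors, with a median of 52.15. For IGF1 against vehicle the smallest p-values were those of Igf2r, which clears IGF2, at -0.58 (SE 0.21, adjusted p = 0.394) and Ctgf at -0.99 (SE 0.39, adjusted p = 0.426). The smallest unadjusted p of these 24 genes was that of Cyr61 for IGF1 against insulin, at -0.87 (SE 0.28, p = 0.00268, adjusted p = 0.539 in limma). Their smallest adjusted p was that of Lrp1, an endocytic receptor, for X10 against insulin. Its log2 fold change was -0.58 (SE 0.18, p = 0.00283, adjusted p = 0.158 in limma). Lrp1 ranged from 647.1 to 1975 RPKM with a median of 892.5 in X10 tumors and from 959.1 to 1854 RPKM with a median of 1524 in insulin tumors. The ligand Igf2 was the most uneven of the system, with 0.355 to 4311 RPKM and a median of 7.301. The receptors Igf1r, Insr and Igf2r had medians of 5.679, 8.409 and 230.7 RPKM.

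Across tumors the binding protein genes mostly varied apart from each other. Of 15 pairs, 1 passed an adjusted p of 0.05 for both Pearson's r and Spearman's rho (permutation tests, adjusted over 117 relations). Igfbp4 and Igfbp7 were inversely related, with r = -0.43 (p = 0.00165, adjusted p = 0.040) and rho = -0.42 (p = 0.00244, adjusted p = 0.0476). Centred within treatment groups r was -0.43, and without the 2 tumors farthest from the median of Igfbp4 it was -0.38. This relation was weakly held: it passed in 17 of 50 analyses that left out a tumor (r from -0.49 to -0.40) and did not pass under upper quartile scaling. The neighbours Igfbp2 and Igfbp5 had r = 0.31 (adjusted p = 0.233), which was 0.15 without glargine_69 and vehicle_161.

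Igfbp3 followed hypoxia genes. Its relation to the mean z-score of Car9, Vegfa, Slc2a1, Ndrg1, Egln3, Bnip3 and Adm, which serve acid balance, vessel growth, glucose uptake and other responses to low oxygen, had r = 0.62 (permutation p = 1e-05, the smallest that the resamples can give, adjusted p = 0.00117) and rho = 0.60 (adjusted p = 0.00175). The relation held within treatment groups (r = 0.63), without X10_100 and insulin_15, the tumors with the most extreme scores (r = 0.57), and in 50 of 50 analyses that left out a tumor. All 7 genes had a positive r with Igfbp3, from 0.38 (Car9) to 0.65 (Vegfa). Library size had r = 0.28 with Igfbp3 and -0.04 with the hypoxia score. The other members had r between -0.30 (Igfbp5) and 0.18 (Igfbp4) with this score. Igfbp2, whose first window held 4 hypoxia cores, had r = -0.26 with this score, and whether such matches bear on the levels was not tested.

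Igfbp3 and Igfbp7 were lower in tumors with more proliferation RNA. With the score of Mki67, Top2a, Ccnb1, Cdk1, Bub1 and Aurkb, genes of cell division, Igfbp3 had r = -0.48 (adjusted permutation p = 0.0187) and rho = -0.52 (adjusted p = 0.00263), and r was -0.48 within groups and -0.40 without IGF1_160 and IGF1_135. The relation did not pass without IGF1_132 or without IGF1_135 (highest adjusted p = 0.0618). Igfbp7 had r = -0.42 (adjusted permutation p = 0.0443) and rho = -0.57 (adjusted p = 0.00175), with r = -0.45 within groups. It passed in 28 of 50 analyses that left out a tumor, where r ran from -0.58 to -0.37, and did not pass with a pseudocount of 1 (adjusted p = 0.0501 for r). Whether these relations are separate from those of Igfbp3 to hypoxia genes and of Igfbp7 to epithelial genes was not tested.

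Igfbp7 was higher in tumors with more epithelial RNA. Its relation to the luminal epithelium score had r = 0.50 (adjusted permutation p = 0.0187) and rho = 0.50 (adjusted p = 0.00702), with r = 0.41 within groups and r = 0.46 without vehicle_174 and vehicle_195. It did not pass without IGF1_135 (adjusted p = 0.0618). The adhesion genes Epcam, Cdh1, Cldn3 and Cldn4 had r from 0.52 to 0.59 with Igfbp7 and the keratins Krt8, Krt18 and Krt19 from 0.18 to 0.31. The basal epithelium score passed for r only (r = 0.48, adjusted permutation p = 0.0443, rho adjusted p = 0.0697), and r was 0.34 without X10_105 and vehicle_174. The endothelium and mural scores, of interest because Igfbp7 is known in vessels, had r = 0.13 and r = 0.22 with Igfbp7. Their rho was 0.26 and 0.33 (adjusted permutation p = 0.329 and 0.209).

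**Figure D4:**
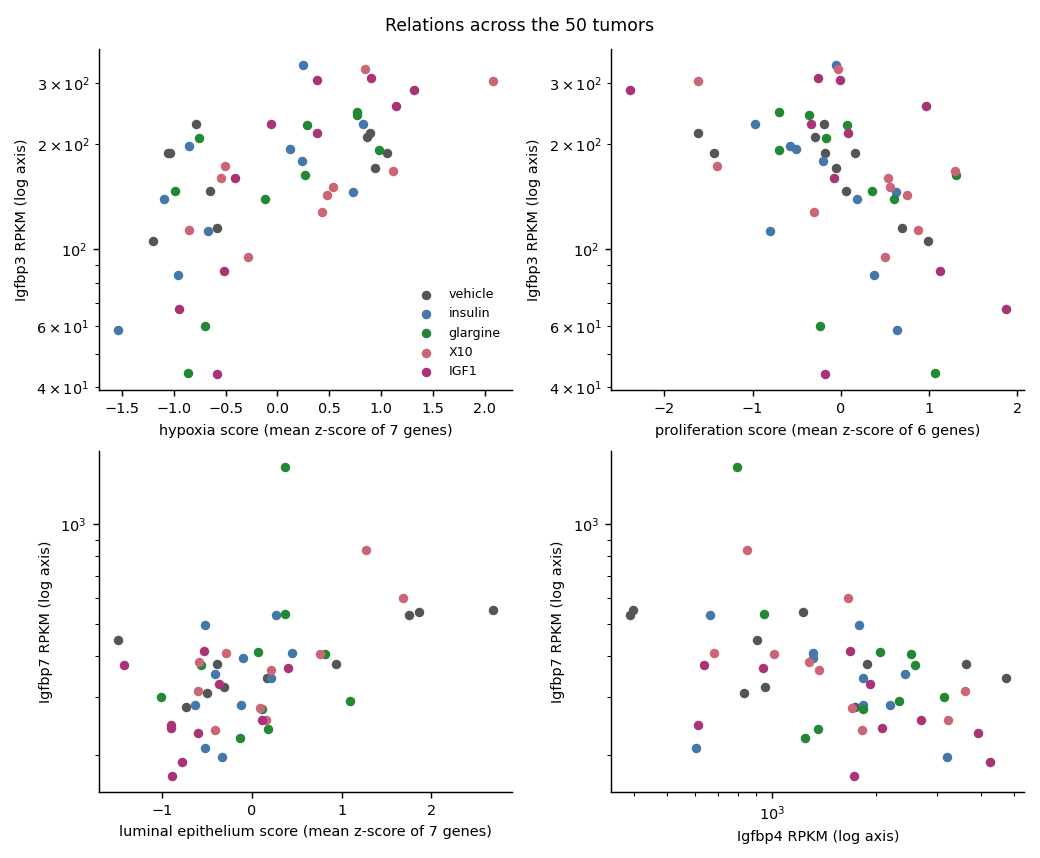
RPKM of Igfbp3 against the hypoxia score and the proliferation score, and of Igfbp7 against the luminal epithelium score and against Igfbp4 RPKM (RPKM on log axes, scores as mean z-scores), with 1 point per tumor colored by treatment. Pearson's r is 0.62, -0.48, 0.50 and -0.43, and tumors of all 5 treatments are spread along each relation.

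Igfbp5 had relations that passed by 1 measure only. With Igf1, its ligand, it had rho = 0.54 (adjusted permutation p = 0.00263) but r = 0.39 (adjusted p = 0.0832), and r was 0.26 within groups. With the milk protein score it had r = 0.45 (adjusted permutation p = 0.040) and rho = 0.40 (adjusted p = 0.0697), and r was 0.38 within groups. Igfbp2, Igfbp4 and Igfbp6 passed both measures with 0 of the 17 scores and genes. For Igfbp4 the value farthest from 0 was r = -0.31 with mural markers.

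**Figure D5:**
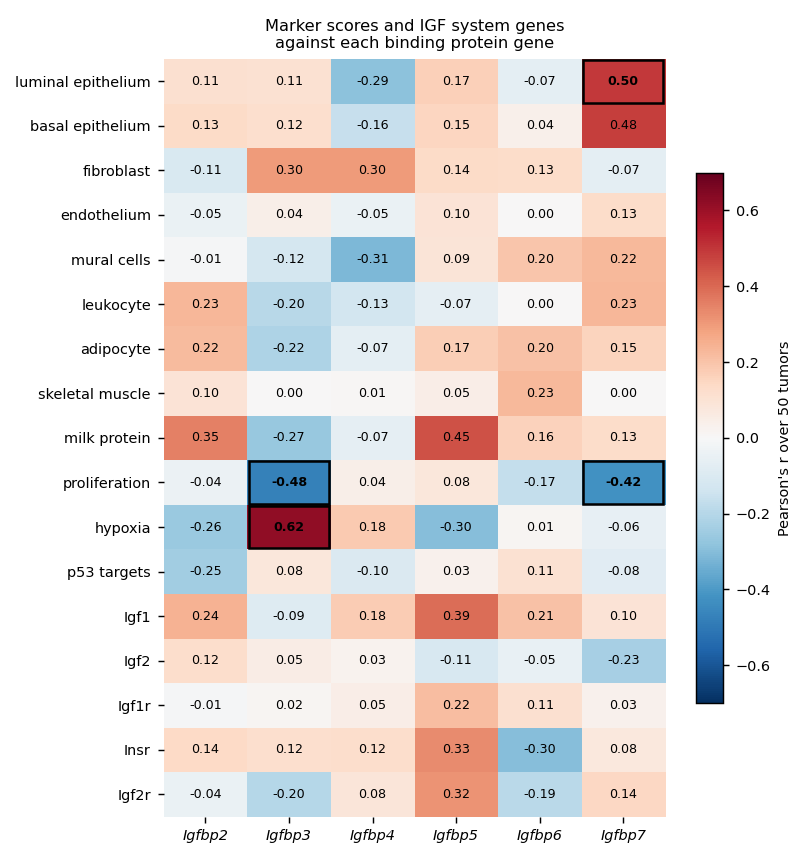
Pearson's r over 50 tumors between each binding protein gene (columns) and 12 marker scores and 5 IGF ligand and receptor genes (rows), with boxes around the 4 relations that passed for both r and rho. The boxes fall on Igfbp3 with hypoxia and proliferation and on Igfbp7 with luminal epithelium and proliferation.

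Single tumors carried very high levels of the low genes. A level over 5 times the median of the 50 tumors was found in 3 tumors each for Igfbp2, Igfbp5 and Igfbp6, and in 0 tumors for Igfbp3, Igfbp4 and Igfbp7. Glargine_69 had 821 RPKM of Igfbp2 (58.3 times the median), 810.5 RPKM of Igfbp5 (41.3 times) and the highest Igfbp7, 1497 RPKM, while its Igfbp6, 4.056 RPKM, was the lowest of all tumors. It ranked 3 of 50 for leukocyte markers and 7 for milk protein genes. Glargine_63 had 940.4 RPKM of Igfbp5 (47.9 times) with 28.15 RPKM of Igfbp2, so its neighbour gene was not raised to the same degree. It ranked 6 for luminal markers and 9 for milk protein genes.

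IGF1_158 had 589.5 RPKM of Igfbp6 (39.1 times) and the lowest Igfbp2 (0.838 RPKM) and Igfbp3 (43.58 RPKM). It ranked 1 for mural, 2 for endothelial and 49 for luminal markers, and 29 for milk protein genes. IGF1_145 had 239.9 RPKM of Igfbp6 (15.9 times) and 108.8 RPKM of Igfbp2 (7.73 times), and ranked 2 for milk protein genes. Vehicle_161 had 219.4 RPKM of Igfbp2 (15.6 times) and ranked 49 for fibroblast and 50 for mural markers, and 47 for milk protein genes. Vehicle_187 had 85.1 RPKM of Igfbp6 (5.64 times) and the highest Igfbp4, and ranked 44 for milk protein genes. Vehicle_182 had 250.2 RPKM of Igfbp5 (12.8 times) and the lowest Igfbp4. It ranked 3 for luminal and for basal markers, 6 for milk protein genes and 50 for fibroblast markers. The part of these markers in the levels was not tested.

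By Pearson's r over the 50 tumors, on the log2(RPKM + 0.5) scale and with no test, the genes most like each member were as follows. Igfbp3 was most like the serotonin receptor gene Htr2b (r = 0.74) and the receptor gene Tnfrsf9 (0.68), with the growth factor gene Vegfa, also on the hypoxia list, in the fourth place (0.65). Igfbp4 was most like Tnfaip2 (0.73) and the Wnt inhibitor gene Notum (0.69), and Igfbp7 most like Als2cl (0.74) and the complement gene C3 (0.69). Igfbp5 was most like the cartilage collagen genes Col9a1 and Col9a2 (0.73 each), which had medians of 0.248 and 1.064 RPKM and reached 34.17 and 64.81 RPKM. Igfbp6 was most like the water channel gene Aqp1 (0.71) and Igfbp2 most like the hedgehog coreceptor gene Boc (0.62).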

How the data were processed

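The authors aligned Ion Proton reads to GRCm38 with TopHat2 2.0.10. According to the study's methods, reads left unaligned went through a second alignment with Bowtie2, and both sets were merged. Gene counts came from HTSeq 0.6.1, as per the labels, and the methods name DEXSeq for an RPKM table. The deposited values are RPKM, normalized to library size and gene length. The deposited RPKM values step in whole reads scaled to a common library of 100 M reads, and library sizes and gene lengths (for Igfbp5 with the help of the annotated median transcript length) were recovered from these steps, with a largest error of 1.11% in library size on 6 simulated tumors. Tumors were grouped by their titles. The titles put 10 tumors in each group, and p-values measure the spread between these tumors.

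Genes whose RPKM averaged 0.5 or more were fitted on log2(RPKM + 0.5) with limma 3.58.1 (R 4.3.3, mean-variance trend) over all 50 tumors, with Benjamini-Hochberg adjustment over 16733 genes and a threshold of 0.05. A fold change on this scale understates changes of low genes. On simulated data for X10 versus vehicle with 16733 genes, 77% of genes changed by 1 log2 unit and 96% of those changed by 2 were found, with 14 false calls. These shares are over genes of every spread. They cannot be carried over to the 6 members, which all varied more between tumors than the median tested gene. The standard errors of the members against vehicle ran from 0.24 (Igfbp7) to 0.76 (Igfbp2). The simulation also changed 200 genes, whereas the real comparison called 11, and more changed genes make the adjusted threshold easier to pass. Scores are mean z-scores over list genes. Relations were tested with 100000 permutations, or 10000 where tumors were left out. The members, the gene lists and the naming rule (other IGF system genes are named when called, otherwise the 2 with the smallest p, with the 5 most similar genes found per member) were chosen with earlier results of these data known. The alternatives were other pseudocounts (0.1 and 1), filters, scalings, covariates and tumors left out.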

Additional observations from a re-analysis of the deposited data

Results flagged for a closer look

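Of 30 sets tested, each a gene in a treatment group of 10 tumors, 3 had a tumor that stood apart by Dixon's ratio of its gap to the group's range (above 0.466), and chance alone flags about 1 in 20. For Igfbp2 in vehicle tumors the ratio was 0.524, with vehicle_161 at 219.4 RPKM and the next tumor at 25.14 RPKM. For Igfbp2 in glargine tumors it was 0.538, with glargine_69 at 821 RPKM and the next tumor at 58.81 RPKM. For Igfbp7 in glargine tumors it was 0.544, with the same glargine_69 at 1497 RPKM and the next tumor at 533.6 RPKM. The ratio was taken on the log2(RPKM + 0.5) scale.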

How the results depend on the processing

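No binding protein gene passed the threshold in any of the 9 tests under any alternative run, including each tumor left out in turn. The adjusted p of Igfbp5 in the pooled comparison of X10 and IGF1 with the other groups ran from 0.154 to 0.261 over the other settings and from 0.0754 to 0.299 with a tumor left out. The order of levels had 3 neighbouring pairs that differed, and 2 with the longest coding transcript as the length, where the assumed length of Igfbp4 sets the change. The pair of members that passed fell from 1 to 0 under upper quartile scaling, and with a pseudocount of 1 the marker relations fell from 4 to 3 with the loss of Igfbp7 and proliferation (adjusted p = 0.0501), and the cause was not tested. With each tumor left out, 0 to 1 pairs of members and 1 to 6 relations to scores or ligand and receptor genes passed, where 1 and 4 passed with all tumors.

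Differences that changed sign were all far from the threshold, and the cause was not tested. For X10 against vehicle the log2 fold change of Igfbp3 was 0.0016 under upper quartile scaling, 0.013 under quantile normalization and 0.21 with library size as a covariate. For IGF1 against vehicle it was 0.015 for Igfbp2 with marker scores as covariates and 0.017 for Igfbp3 with library size as a covariate. In the pooled comparison marker scores gave -0.015 for Igfbp4 and 0.028 for Igfbp6. Without glargine_63 and glargine_69 the glargine differences from vehicle were -0.16 for Igfbp5 and 0.23 for Igfbp6. With a tumor left out, values ran for insulin from -0.63 to 0.026 (Igfbp2), for glargine from -0.34 to 0.069 (Igfbp6) and from -0.27 to 0.031 (Igfbp7), and for X10 from -0.17 to 0.028 (Igfbp3) and from -0.19 to 0.011 (Igfbp7). For IGF1 they ran from -0.68 to 0.092 (Igfbp2), from -0.16 to 0.15 (Igfbp3) and from -0.25 to 0.52 (Igfbp6), and in the pooled comparison from -0.32 to 0.061 (Igfbp6). No paired analysis was possible because the tumors of different groups share no replicate number.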
